A study of Mus musculus with 6 samples.

Results

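The macrophages (MΦs) described here are the Lyve1-type perivascular MΦs of the mouse proximal pulmonary artery (PA), found in single cell RNA sequencing libraries of young and old C57BL/6J wild-type mice. A droplet barcode was kept where it held at least 500 UMIs (unique molecular identifiers, tags that mark single RNA molecules), at least 300 genes and at most 20% mitochondrial UMIs. It was taken as a MΦ where the complement genes C1qa, C1qb and C1qc and the mannose receptor Mrc1 together had at least 2 UMIs and more than 2 times the summed UMIs of 7 genes of other lineages (Cdh5, Myh11, Pdgfra, Cd79a, Cd3e, Msln and Scgb1a1). A MΦ was called Lyve1-type perivascular where Lyve1, Folr2, Cd163 and F13a1 made up at least 0.1% of its UMIs. By this rule 842 of 15622 kept barcodes were perivascular MΦs, and the other 521 of the 1363 MΦs formed the comparison. The name rests on expressed genes, since the position of the cells around the artery was not measured.

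The study asked how the proximal PA changes with age, and the libraries were made from arteries excised with surrounding tissue and digested with collagenase and elastase. There were 2 young libraries of 3 months, called young 1 (no sex in its label) and young 2 (labelled female), and 4 old libraries of 20, 24, 27 (labelled male) and 28 (labelled female) months. All mice were wild type and untreated. The study lists 1 mouse for each old age, so the old libraries come from separate animals, and a further young library was not analysed here. Values per library are given below in the order young 1, young 2, 20, 24, 27 and 28 months.

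Depth differed widely between libraries. Total UMIs were 9487564 and 6355125 in young 1 and young 2, and 7042921, 12851645, 36218542 and 50436562 in the old libraries. The number of perivascular MΦs was 97, 8, 46, 37, 229 and 425, and their median UMIs per cell were 915, 655, 2896.5, 1006, 6252 and 5869. The 27- and 28-month libraries thus held most of the cells and most of the UMIs. Young 2, with 8 cells and 7177 UMIs in all, entered no fit, and its value is given for many genes but not for all. Young 1, young 2 and the 24-month library shared kept barcodes, 156 between the young libraries, 131 between young 1 and 24 months and 215 between young 2 and 24 months, against at most 4 in any other pair. None of the shared barcodes was a perivascular MΦ in both libraries, and 7 were MΦs in both young 2 and the 24-month library. The 20-month library, from a male by the study's description, held 2411 counts of the female transcript Xist and 2 of the Y-linked Eif2s3y in its kept barcodes. The 28-month female had 20518 and 0, and the 27-month male 48 and 1898, so by these genes the 20-month library went against that description. Its counts of the Y-linked Ddx3y and Uty were 209 and 15, against 2 and 0 at 28 months and 6021 and 2290 at 27 months, and whether it holds cells of both sexes was not tested. Xist and Eif2s3y had 150 and 109 counts in young 1, and 164 and 207 at 24 months, a male by the study's description. Young 1 thus carried Y-linked counts, while the 20- and 28-month libraries were rich in Xist. The fits hold no term for sex, and its part in the age differences was not tested.

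Perivascular MΦs are tissue-resident cells that lie along blood vessels and take up material from the blood and the interstitium. Lyve1 binds hyaluronan, Folr2 binds folate, Cd163 takes up haemoglobin bound to haptoglobin, and F13a1 is the A subunit of a clotting factor that cross-links fibrin. In many organs Lyve1-high MΦs carry little major histocompatibility complex class II (MHC-II), the molecules that present antigen to helper T cells, and they are known for scavenger and lectin receptors and for secreted growth factors.

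Lyve1, Folr2, Cd163 and F13a1 chose the members, and Mrc1 belonged to the gate that all MΦs passed, so their values are a description. Lyve1 was at 1129, 279, 654, 527, 1710 and 880 CPM (counts scaled to the UMIs summed over the cells of a library) in perivascular MΦs and at 0 to 31.4 CPM in other MΦs. Folr2 was at 584, 139, 1033, 779, 1105 and 991 CPM, and F13a1 at 783, 2229, 1479, 1443, 6164 and 4453 CPM. F13a1 was highest in the 27- and 28-month libraries and lowest in young 1, while Lyve1 showed no such order between young and old. Cd163 was the most even of the 4, from 573 CPM at 24 months to 926 CPM at 28 months. Mrc1, not part of the marker share, was at 951, 1951, 1100, 1627, 3298 and 3197 CPM in perivascular MΦs and at 499, 31.4, 411, 427, 655 and 780 CPM in other MΦs.

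**Figure D1:**
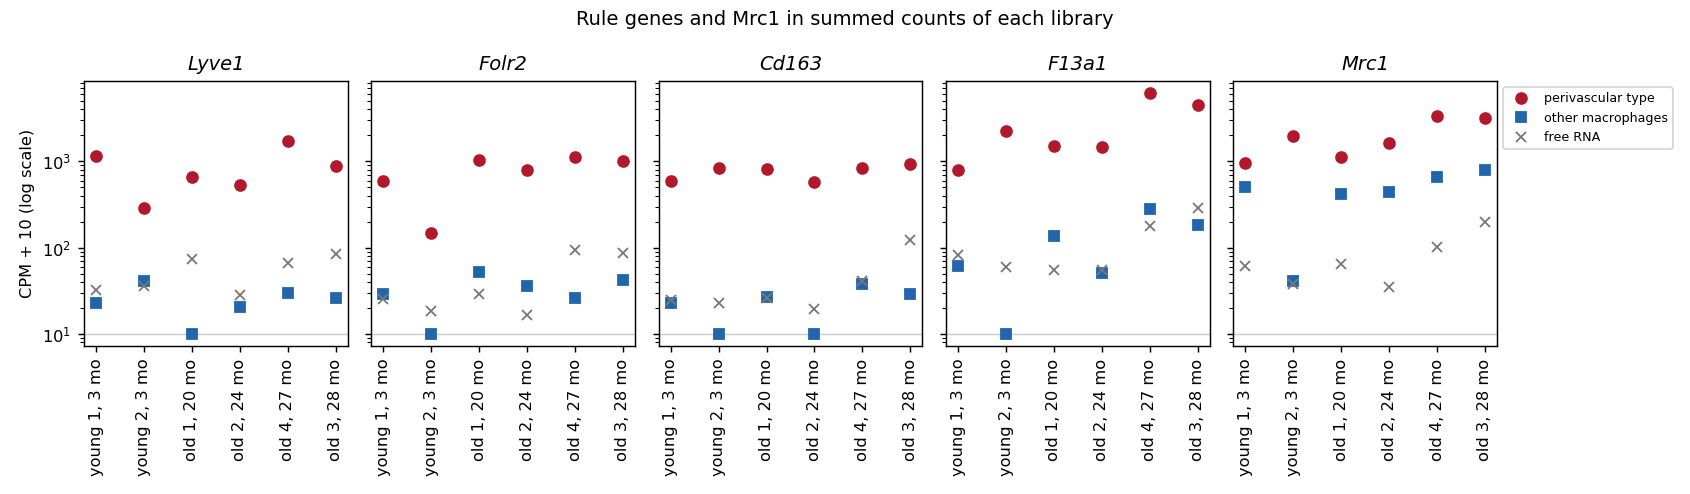
Summed expression of the 5 markers by library on a log axis (CPM + 10), with points for perivascular MΦs, other MΦs and free RNA (barcodes of few UMIs). Perivascular MΦs lie above the other MΦs for every marker in every library, from 139 CPM (Folr2 in young 2) to 6164 CPM (F13a1 at 27 months), and young 2 rests on 8 cells.

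All 4 markers were detected together in 393 of the 842 cells, 3 of them in 221, 2 in 122 and 1 in 106. F13a1, which monocytes also express, was the one detected marker of 69 cells. At least 1 Lyve1 UMI was found in 59.8%, 25%, 60.9%, 35.1%, 90.4% and 75.3% of perivascular MΦs, the highest shares lying in the 2 deepest libraries. In 32 cells, 23 of them in young 1, a single marker UMI was enough to pass the limit. Near the limit, 29 cells held a marker share of 0.1 to 0.12% and 24 other MΦs held 0.08 to 0.1%, with MHC-II at a median of 1.86% and 2.27% of their UMIs. Most of the other MΦs were far from the limit, since 411 of the 521 had no marker UMI. Scrublet, a doublet caller, marked 1, 0, 1, 1, 9 and 8 of the perivascular MΦs as doublets, and these were kept.

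Perivascular MΦs made up 40.4% (exact 95% binomial interval 34.2 to 46.9%), 20.5% (9.30 to 36.5%), 48.4% (38.0 to 58.9%), 23.4% (17.1 to 30.8%), 87.1% (82.4 to 90.9%) and 74.8% (71.0 to 78.3%) of the MΦs. These intervals cover counting error alone. The 27- and 28-month libraries were high and the 24-month library lay within the young range, so the groups overlapped. The 2 young libraries had a mean share of 30.5% ± 14.1 (SD) and the 4 old libraries one of 58.4% ± 28.4 (SD), a difference of 28 percentage points (two-sided exact permutation test, p = 0.267, with a smallest possible p of 0.133). With every barcode thinned to 500 UMIs the shares were 37.4%, 18.2%, 44.0%, 24.5%, 87.9% and 78.4%, in the same order as before. Of all kept barcodes, perivascular MΦs were 3.56%, 0.856%, 3.73%, 1.29%, 6.03% and 10.4% (2.21% ± 1.91 in 2 young and 5.38% ± 3.90 in 4 old libraries, two-sided exact permutation p = 0.267).

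**Figure D2:**
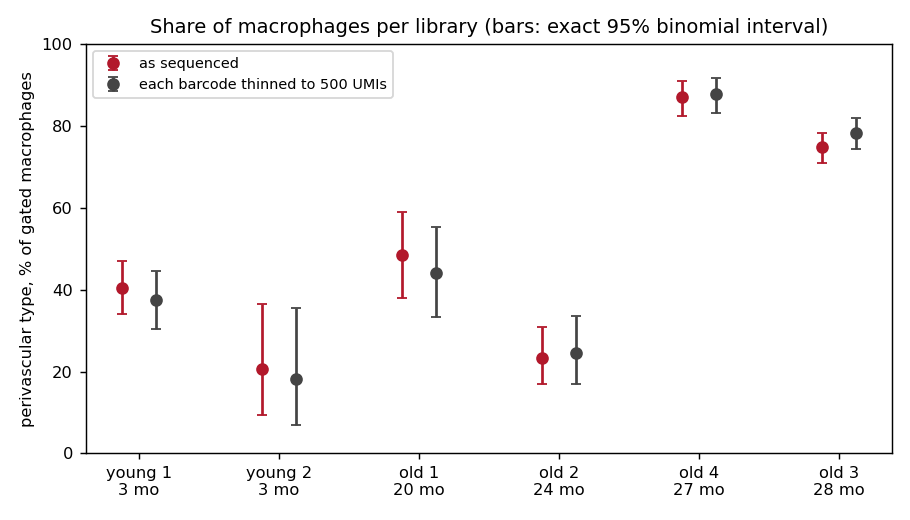
Perivascular MΦs as a percent of MΦs in each library, as sequenced and with each barcode thinned to 500 UMIs, with exact 95% binomial intervals as bars. The 27- and 28-month libraries stand at 87.1% and 74.8% as sequenced, and the other 4 lie between 18.2% and 48.4% at either depth.

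Genes that the rule did not use were compared between perivascular and other MΦs within each library, as the ratio of CPM with 0.5 counts added to both sums. Because the members were chosen by expression in the same cells, these ratios describe the cells and carry no test. Over the 5 libraries with at least 10 perivascular MΦs, 842 of 9635 genes (8.74%) were higher in perivascular MΦs in every library and 597 (6.2%) lower. At least a 2-fold difference in every library was seen for 48 genes higher (0.498%) and 25 lower (0.259%). In 65 of the 842, 24 of the 597, 4 of the 48 and 1 of the 25, a library had no count in either sum, so that the direction there came from the added counts. These counts depended on the libraries used. Beside the 73 genes at least 2-fold apart, 204 genes were so without young 1 (72 of the 73 among them), 138 without the 20-month and 166 without the 24-month library (all 73 in both). With each perivascular MΦ and other MΦ thinned to 500 UMIs, where 2571 genes had enough counts, 25 genes were 2-fold apart and 14 of them were among the 73.

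A list of 27 genes known for this kind of MΦ, none of them in the rule, was read first. In perivascular MΦs 21 of the 27 were higher in every library, 12 of them at least 2-fold, and none was lower in every library. Their median log2 ratio was 2.66, beside 0.06 over all 9635 genes, and within libraries it was 1.06 in young 1 and 2.24 to 3.27 in the old libraries. Young 1 had the lowest median. The list was chosen with earlier results of these data known, so its counts are a description and no independent support for the name. With every barcode thinned to 500 UMIs before the rule was applied, an alternative chosen after seeing the data, the medians were 0.97 in young 1 and 1.49, 2.11, 1.67 and 2.23 in the old libraries.

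The chemokine Ccl8, which attracts monocytes and lymphocytes, had the highest median ratio. Its level in perivascular MΦs was 307, 418, 1486, 4353, 683 and 10103 CPM, and in other MΦs 117, 0, 0, 36.4, 0 and 152 CPM. The old libraries differed among themselves by more than 10 times, with 28 months highest and 27 months lowest. A Ccl8 UMI was found in 11.3%, 25% (2 of 8 cells), 56.5%, 43.2%, 51.1% and 85.4% of the perivascular MΦs, at median depths of 655 to 1006 UMIs per cell in the young and the 24-month libraries and of 2896.5 to 6252 in the others, so these shares are not at equal depth. In the other MΦs of young 1, 4 of 143 cells held the 18 Ccl8 counts, 10 of them in 1 cell. No single cell carried the high level at 28 months, where the top cell held 1.83% of 27994 counts.

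Several lectin and uptake receptors followed. Cd209f, a C-type lectin of the SIGN family, was at 198, 697, 869, 275, 1050 and 1531 CPM in perivascular MΦs and at 110, 62.9, 0, 52.0, 0 and 14.8 CPM in other MΦs. Its relatives Cd209g and Cd209b were at 115 to 421 CPM and 91.6 to 322 CPM in the old libraries and at no more than 7.98 CPM in the other MΦs of those libraries. In young 1 they were not set apart in this way, with Cd209g at 178 against 58.4 CPM and Cd209b at 29.7 CPM (3 counts) against 19.5 CPM (3 counts), and neither had a count in the perivascular MΦs of young 2. Timd4, a receptor for phosphatidylserine on dying cells that marks long-lived resident MΦs, was at 367, 418, 134, 275, 287 and 190 CPM, against 195, 723, 0, 229, 3.99 and 7.98 CPM in other MΦs. Timd4 therefore set the perivascular MΦs apart at 20, 27 and 28 months, while in young 1, young 2 and at 24 months it was also found in other MΦs. Fcna, a lectin that starts the complement cascade, had the same pattern as Timd4 as sequenced, with 1238, 139, 765, 641, 1345 and 1214 CPM against 558, 377, 0, 239, 0 and 11.4 CPM.

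The region before the start of Fcna and of Timd4 is shown because Maf, itself high in these cells, binds DNA at a known short element, and these 2 genes hold it in the 250 bases before to 50 after the start. The promoters come from RefSeq on GRCm38.p6, and 11 of the 12 genes with the highest ratios and 8 of the 12 with the lowest had one. Capitals mark the element TGCTGAC or its reverse complement, and each stretch reads 5′ to 3′ along the gene, for Fcna at chr2:25628045-25628111 on the minus strand and for Timd4 at chr11:46810724-46810790 on the plus strand.
Fcna: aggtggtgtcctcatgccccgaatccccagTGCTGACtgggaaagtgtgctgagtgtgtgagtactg
Timd4: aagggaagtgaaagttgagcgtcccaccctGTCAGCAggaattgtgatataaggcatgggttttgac
The element began 107 bases before the start of Fcna and 45 before that of Timd4. Searched on both strands, it was in 4.67% of all 32851 promoters, in 3 of the 11 higher genes (Cbr2, Fcna and Timd4) and in none of the 8 lower genes. Its shorter form TGCTGA, which overlaps it, was in 19.5% of all promoters, in 4 higher genes and in 1 lower gene. The string GAGGAA, bound by the myeloid factor PU.1, was in 28.3% of all promoters, in 3 higher and 4 lower genes. Its overlapping forms GAGGAAG (13.6% of all) and AGGAAGT (9.35%) were each in 3 and 3. A match of letters is a description and not a binding site.

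Genes for secreted factors and enzymes were also among those with high ratios. Gas6, a ligand of the TAM receptors that bridges MΦs to dying cells, was at 119, 139, 379, 91.6, 804 and 1172 CPM in perivascular MΦs and at no more than 81.0 CPM in other MΦs of any library. Selenop, which carries selenium in plasma, was at 1684, 1393, 1776, 2085, 5772 and 4435 CPM against 610, 786, 386, 442, 663 and 389 CPM. Both were highest in the 27- and 28-month libraries. Cbr2, a carbonyl reductase, was at 515, 418, 795, 756, 897 and 428 CPM with no order by age. The chemokine Pf4 reached 4467 CPM at 24 months in perivascular MΦs but 3404 CPM in the other MΦs of that library, and 853 against 159 CPM at 28 months. Maf, a transcription factor of resident MΦs, was at 1228, 557, 2556, 1168, 1701 and 1190 CPM against 571, 126, 630, 245, 120 and 185 CPM in other MΦs. Fcgrt, which recycles immunoglobulin G, had a median log2 ratio of 3.10. The remaining genes of the 12 with the highest median log2 ratios were Gm49144 (4.50), Plekhg5 (3.72), Coro2b (3.59) and Rcn3 (3.55). The median of Plekhg5 is its 24-month ratio, from 1 count against 0, so the added counts set its size. In young 1 its log2 ratio was 0.06, on 6 against 9 counts.

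**Figure D3:**
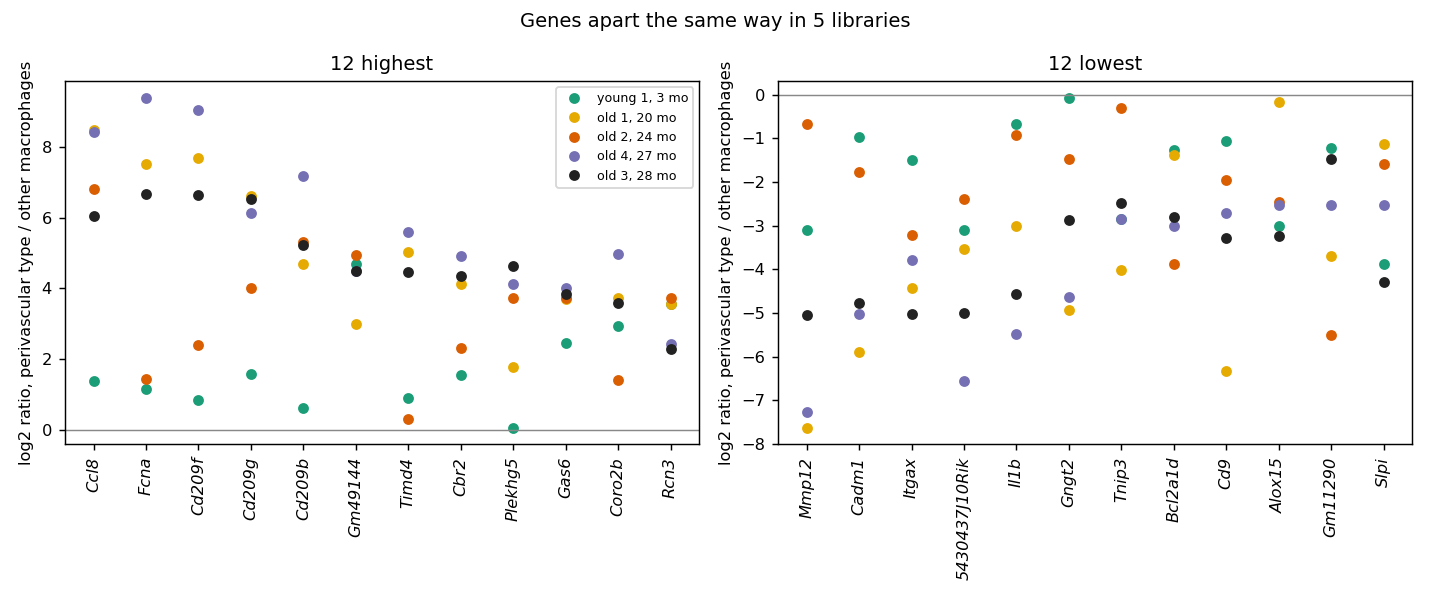
Log2 ratio of CPM in perivascular over other MΦs for the 12 genes with the highest and the 12 with the lowest median ratio, 1 point per library, with 0.5 counts added to both sums. The point of young 1 is the nearest to 0 for 15 of the 24 genes, as for Cd209f with 0.84 in young 1, 2.39 at 24 and 6.64 at 28 months, and where one kind of MΦ had 0 counts the added 0.5 counts set the size of the ratio.

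The sizes of the highest ratios depended on depth. Other MΦs had 0 counts of Ccl8, Cd209f and Fcna at 20 and 27 months, so the ratios there rest on the added counts. With every barcode thinned to 500 UMIs before the rule, the log2 ratio of Ccl8 was 1.90 in young 1 and 3.04, 6.95, 2.85 and 3.02 in the old libraries, where it had been 1.38 and 8.47, 6.80, 8.42 and 6.05. For Cd209f it was -0.10 and 1.60, 3.74, 4.92 and 3.09, after 0.84 and 7.70, 2.39, 9.04 and 6.64. For Fcna it was 0.56 and 2.82, 1.46, 2.10 and 4.22, after 1.15 and 7.52, 1.43, 9.40 and 6.66. At equal depth young 1 was thus still the nearest to 0 for these 3 genes, by a smaller distance from the 20-, 27- and 28-month libraries, and in young 1 Cd209f was no higher in perivascular than in other MΦs.

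Among the 12 genes with the lowest ratios, Mmp12, the macrophage elastase, was at 9.91, 0, 0, 0, 1.38 and 7.58 CPM in perivascular MΦs and at 123, 31.4, 730, 15.6, 264 and 256 CPM in other MΦs. Il1b, a cytokine that drives acute inflammation, was at 188, 0, 66.9, 183, 22.1 and 10.5 CPM against 305, 157, 562, 364, 994 and 252 CPM. Perivascular MΦs had the lower Il1b level in every library. Itgax, which encodes the integrin CD11c, was at 0 to 9.91 CPM against 0 to 159 CPM, and Cadm1, an adhesion molecule, had a median log2 ratio of -4.76. Cd9, a tetraspanin, was at 149, 279, 7.43, 321, 49.1 and 39.3 CPM in perivascular MΦs and at 318 to 1291 CPM in other MΦs. Slpi, an inhibitor of neutrophil proteases, and Alox15, a lipoxygenase, had counts mainly in young 1, young 2 and the 24-month library. In the 27-month library neither had a count in any MΦ, and Alox15 had none at 20 months either. Gngt2, Tnip3, Bcl2a1d, 5430437J10Rik and Gm11290 completed the 12.

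The counts of other lists stand beside the 8.74% of all genes higher and 6.2% lower in every library. Of 11 monocyte genes none was higher and 6 were lower in every library (median log2 ratio -1.39), and of 9 MHC-II genes none was higher and 3 were lower (-0.93). Of 27 genes of matrix and proteases 4 were higher and 11 lower (-0.97), and of 82 ribosomal protein genes none was higher and 54 were lower (-0.54). Lower ribosomal counts were thus the most frequent of these differences. Of 22 scavenger and Fc receptor genes 10 were higher and 2 lower (0.57), among them Dab2, an adaptor of endocytosis, at 396, 279, 721, 985, 1839 and 1340 CPM. Of 28 lysosome genes 11 were higher and 2 lower (0.38), of 22 growth factor genes 8 and 2 (0.58), and of 54 interferon response genes 11 and none (0.56). Among the interferon genes Ly6e was at 773, 975, 1494, 1100, 1403 and 1595 CPM against 629, 629, 319, 619, 156 and 283 CPM in other MΦs. The 16 complement genes had 3 higher and 1 lower (0.89), the latter near the share of all genes. Chemokines and their receptors went both ways, with 9 of 24 higher and 4 lower (-0.17), as did lipid-handling genes, with 4 of 18 higher and 5 lower (-0.53).

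The rule draws a line through a range of marker levels, so genes outside the rule were followed over 5 bins of marker share in the 2 deepest libraries. At 27 months, Cd209f was at 0 CPM in MΦs with no marker UMI, at 0 CPM above 0 and under 0.1%, at 210 CPM from 0.1 to 0.5%, at 932 CPM from 0.5 to 1% and at 1391 CPM over 1%. At 28 months the same bins gave 9.55, 19.7, 465, 1829 and 2319 CPM. Fcna was at 0 CPM in the first and 1751 CPM in the last bin at 27 months and at 11.9 and 2084 CPM at 28 months. Timd4 was at 0 and 377 CPM and at 7.16 and 349 CPM in these bins. Cd209f, Fcna and Timd4 were thus low at the limit and highest in the cells richest in markers. Cd209b at 27 months and Ccl8 in both libraries were highest from 0.5 to 1% instead, Cd209b with 392 CPM there and 308 CPM over 1%, and Ccl8 with 1126 and 613 CPM at 27 months and 13800 and 10770 CPM at 28 months.

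Ccr2, the chemokine receptor by which monocytes leave the blood, was not lowest outside the rule. At 27 months it was at 418, 1105, 1035, 77.5 and 36.0 CPM over the 5 bins, and at 28 months at 270, 972, 1056, 245 and 45.0 CPM. The summed monocyte genes had the same shape, at 1432, 6071, 4009, 489 and 265 CPM and at 1812, 6466, 5052, 673 and 268 CPM. Perivascular MΦs with a marker share of 0.1 to 0.5% therefore carried monocyte genes at a level near that of the MΦs just outside the rule, and those over 0.5% did not. They were 29 cells at 27 months and 113 at 28 months. H2-Aa, an MHC-II chain, was at 5149 CPM in this bin at 27 months and at 2299 and 1309 CPM above it, and at 4841, 1887 and 600 CPM at 28 months. Il1b was at 1285 and 310 CPM in MΦs with no marker UMI and at 1.29 and 1.45 CPM in those over 1%. Each bin belongs to 1 library and none of these differences was tested.

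**Figure D4:**
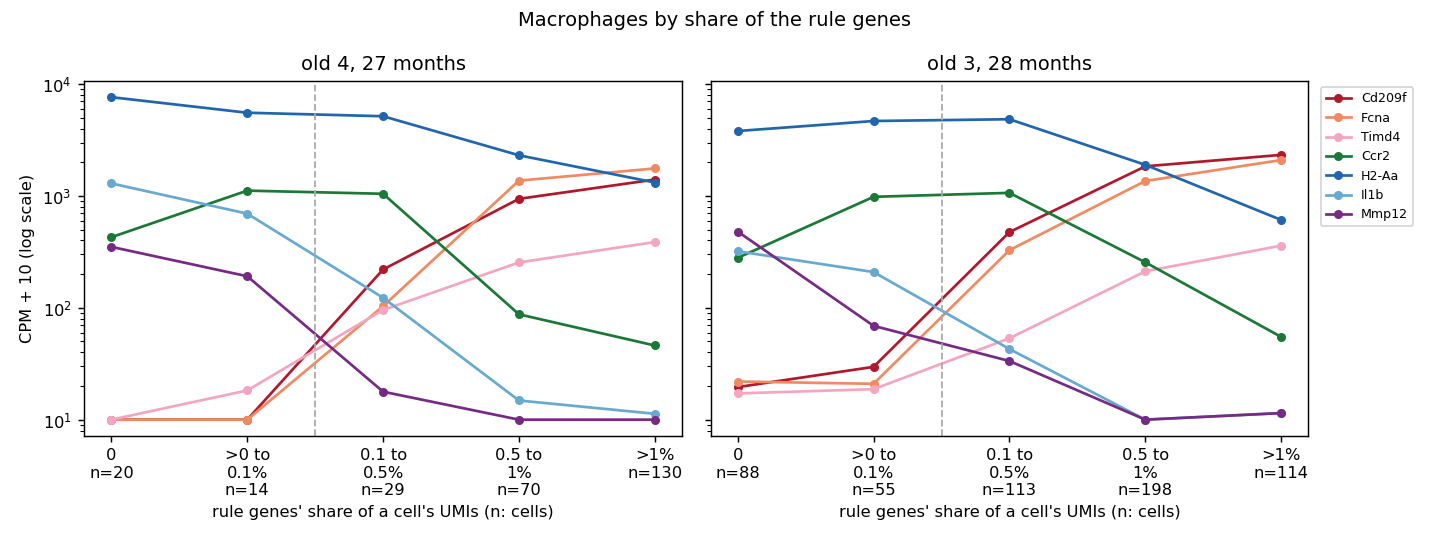
CPM + 10 on a log axis over 5 bins of marker share in MΦs of the 27- and 28-month libraries, for Cd209f, Fcna, Timd4, Ccr2, H2-Aa, Il1b and Mmp12. Cd209f, Fcna and Timd4 lie at no more than 19.7 CPM below 0.1% and at 349 CPM or more over 1%, while Ccr2 peaks in the 2 bins around the limit, at 972 to 1105 CPM.

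MHC-II varied strongly among the perivascular MΦs. The share of UMIs on 4 MHC-II genes had a median of 0.069%, 1.91%, 3.18%, 0.721%, 0.603% and 0.659% by library and ran from 0 to 10.6% over cells. The 20-month library was the highest. The perivascular MΦs of the 27- and 28-month libraries were split by this share into 3 parts of nearly equal size, low, middle and high, the high part beginning at 1.39% and 1.49%, and genes outside the share were read across them. Ccr2 was at 0, 10.5 and 693 CPM from the low to the high part at 27 months and at 17.3, 172 and 1080 CPM at 28 months. Timd4 went the other way, at 461, 259 and 125 CPM and at 317, 218 and 49.9 CPM. Fcna was at 1835, 1638 and 506 CPM and at 2005, 1341 and 395 CPM, and Lyve1, a gene of the rule, at 2371, 1794 and 897 CPM and at 1515, 942 and 259 CPM. Adgre1, which encodes the general MΦ marker F4/80 and was chosen after its values were seen, was nearly level at 622, 603 and 609 CPM and at 602, 652 and 674 CPM. Ribosomal protein genes summed to 59227, 58711 and 75858 CPM and to 32319, 39128 and 62505 CPM, and interferon genes to 6418, 7325 and 5907 CPM and to 9539, 9645 and 8120 CPM. In both libraries Ccr2 was thus highest in the MHC-II-high part, and Timd4, Fcna and Lyve1 in the MHC-II-low part. The marker share differed over the same parts, with medians of 1.13%, 1.1% and 0.819% at 27 months and 0.965%, 0.828% and 0.434% at 28 months, so the split by MHC-II is partly one by marker share. Median UMIs per cell were 6795, 5743.5 and 5850.5 over the parts at 27 months and 5469.5, 5942.5 and 6073 at 28 months, and all 3 parts come from 1 library each time, with no test.

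Genes of other cell types were read as sums over their lists. Monocyte genes, led by Fn1, summed to 2625, 5991, 676, 4009, 994 and 1921 CPM in perivascular MΦs, and airway epithelial genes, led by Scgb1a1, to 188, 697, 81.7, 985, 174 and 62.8 CPM. Both were high in young 2 and at 24 months. B cell genes, led by Ighm, reached 687 CPM at 24 months with Igkc at 0, endothelial genes, led by Pecam1, 458 CPM at 24 months, and neutrophil genes 343 CPM at 28 months with Ly6g at 0. Summed T and NK cell genes were at no more than 68.7 CPM in any library, with Cd8a, Nkg7, Trac and Trbc2 at 0, and smooth muscle genes at no more than 689 CPM, with Acta2 the most abundant. Fibroblast genes summed to 109, 279, 163, 183, 613 and 534 CPM, led by Gsn, and the lymphatic endothelial genes, which with Lyve1 could have entered the rule, to 59.4, 0, 7.43, 0, 251 and 15.2 CPM, led by Ccl21a. Dendritic cell genes summed to 119 to 466 CPM with Ccr7, Clec9a and Xcr1 at 0. Alveolar MΦ genes, led by the scavenger receptor Marco, summed to 1466, 836, 96.6, 504, 182 and 398 CPM with Fabp1, Krt79 and Siglecf at 0, so they were highest in the young libraries. Haemoglobin and other erythroid genes summed to 238, 697, 37.2, 24650, 14.5 and 13306 CPM, led by Hbb-bs, against 27628, 94798, 7675, 109891, 1416 and 102031 CPM in free RNA. They were high in perivascular MΦs at 24 and 28 months, where other MΦs held 33515 and 27666 CPM, and their part in other values of these libraries was not tested.

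Old and young perivascular MΦs were then compared by summing counts per library, with edgeR's quasi-likelihood test over 6450 genes. Young 1 was the one young library with at least 10 perivascular MΦs, so its spread is taken to equal that of the 4 old libraries, and the p-values rest on the spread between the old libraries. No gene passed an adjusted p under 0.05 in either direction (0 higher, 0.0%, and 0 lower, 0.0%). At an unadjusted p under 0.05, 303 genes stood higher (4.7%) and 206 stood lower (3.19%) with age, and DESeq2 called 9 genes, each of them lower. Of all 6450 genes, 3535 had a positive and 2915 a negative log2 fold change. The filter can be passed through the 4 old libraries alone, and 333 of the 6450 genes had no count and 1847 had 1 to 3 counts in young 1, so counts and medians over gene lists describe the genes tested and support no direction. All 4 old libraries lay above young 1 for 23.0% of genes and below it for 22.1%. In pooled cells of this kind, more cells in one state and more RNA per cell cannot be told apart.

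Among the 10 higher genes of lowest p, Pdgfc, a platelet-derived growth factor that acts on fibroblasts, was at 9.91 CPM (1 count) in young 1 and at 119, 183, 258 and 468 CPM in the old libraries. The young count lies under the floor of 3 counts used below, and the ratio of the old mean to it, 26.0, has a 95% counting interval of 4.66 to 1025 (edgeR log2 fold change 4.66 ± 1.23 SE, adjusted p = 0.627). The lectin Cd209d had no count in young 1 and was at 275, 137, 437 and 560 CPM in the old libraries. Against a floor of 3 counts in young 1, the mean of the old libraries was at least 11.9-fold higher and the lowest of them at least 4.62-fold (edgeR adjusted p = 0.557). Il4ra, the interleukin-4 receptor, and Gsn, the actin-severing protein gelsolin, were likewise without a count in young 1. Their old means were at least 5.26-fold and 5.29-fold higher, and the lowest old libraries at least 3.08-fold and 2.0-fold. For Il4ra 28 months stood at 323 CPM and the other old libraries at 91.6 to 106 CPM. Gsn also leads the fibroblast list, was lower in perivascular than in other MΦs in 4 of 5 libraries, and stood at 273 CPM in the free RNA of young 1 and at 508 to 1958 CPM in that of the old libraries, whose part in its difference was not tested. The others of the 10 lowest p-values among higher genes, Hivep3, Csnk1g1, Bod1l, Dpyd, Trafd1 and Cd209a, also had 0 counts in young 1. Pdgfc and the genes without a count in young 1 passed the filter through the old libraries alone and were then picked by lowest p. Their fold values are therefore a description and support no direction with age. With 100945 UMIs in young 1, the floor of 3 counts stands at 29.7 CPM.

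Igf1, the insulin-like growth factor that resident MΦs supply to muscle and fibroblasts, was at 69.3, 139, 149, 275, 456 and 304 CPM. Every old library was above young 1, and the value of young 2 is 1 count, under its floor of 418 CPM (edgeR log2 fold change 2.04 ± 0.81 SE without young 2, unadjusted p = 0.0299, adjusted p = 0.627). Ccl8 was above young 1 in every old library as well, with a log2 fold change of 3.70 ± 1.70 SE (edgeR adjusted p = 0.650). Of the 27 genes of the perivascular list 22 had a positive and 5 a negative log2 fold change, beside 3535 and 2915 of all genes. The median of the list was 0.88, beside 0.11 over all 6450 genes. With the 3 libraries that share barcodes marked by a covariate the median was -0.14.

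The libraries also differed in how far their perivascular MΦs lay above the limit of the rule. The median marker share was 0.261%, 0.339%, 0.328%, 0.305%, 1.05% and 0.766%, and cells under 0.5% were 83.5%, 62.5%, 82.6%, 73.0%, 12.7% and 26.6% of the perivascular MΦs. Young 1 thus lay mostly in the range next to the limit, and the 27- and 28-month libraries mostly above it. Levels were therefore read in cells of 0.1 to 0.5% alone, a comparison chosen after seeing the data, with 81, 5, 38, 27, 29 and 113 cells and no test. The cells of this range were not alike in other ways. Their monocyte genes summed to 2619, 7862, 806, 4978, 4009 and 5052 CPM. Their median UMIs per cell were 8183 at 27 and 6836 at 28 months, against 915 over all perivascular MΦs of young 1. In these cells Ccl8 was at 274, 187, 1395, 3959, 187 and 4246 CPM, so that 27 months was below young 1. Igf1 was at 68.6, 187, 133, 291, 307 and 149 CPM and Pdgfc at 0, 0, 104, 175, 70.1 and 185 CPM, with every old library above young 1 for both. Cd209f was at 183, 0, 787, 146, 210 and 465 CPM, and Fcna at 1350, 187, 446, 582, 93.4 and 318 CPM, young 1 being the highest for Fcna. The perivascular list summed to 12535, 8985, 15635, 16943, 10462 and 13986 CPM, with young 1 inside the old range, and the interferon genes to 4815, 6177, 9658, 6900, 4133 and 7456 CPM, with 27 months below young 1. Cdkn1a stayed below young 1 in every old library, at 652, 1685, 427, 262, 370 and 159 CPM.

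Of 27 genes that the study names for these cells or their signals, chosen by it on these samples, 23 were tested, 17 with a positive and 6 with a negative log2 fold change (median 0.55), and none passed the adjusted threshold. Ctsb, a lysosomal protease, was at 4111, 975, 2304, 1833, 2814 and 3713 CPM, every old library being below young 1 and above young 2. Ecm1, an extracellular matrix protein, was at 178, 418, 334, 458, 359 and 314 CPM, and Il15, a cytokine for lymphocytes, at 29.7, 0, 89.2, 45.8, 70.5 and 94.2 CPM. Both were above young 1 in every old library, as were Folr2, Ccl8, Igf1 and Pdgfc and, on 2 young counts each, Cxcl12 and Rps6ka5. For Il15, the young 1 value is 3 counts, and the 24-month value lies under the floor of 68.7 CPM in that library. Over all 6450 genes, 3535 had a positive and 2915 a negative log2 fold change. All 4 old libraries lay above young 1 for 23.0% of them and below it for 22.1%. Folr2 belongs to the rule and C1qa to the gate, so their part in this tally is a description. Besides Ctsb, the genes C3, Cdkn1a and Cdkn2a were below young 1 in every old library. For the rest, young 1 lay within the old range. The chemokine Ccl2 was at 1080, 557, 1568, 871, 290 and 104 CPM, the growth factor Tgfb1 at 228, 0, 498, 229, 431 and 161 CPM, and the receptor Tnfrsf1a at 89.2, 0, 141, 45.8, 176 and 197 CPM, and the same held for C1qa, Pf4, Il6st, Bmp2, Nrg2, Mmp9, Adam9 and Vegfb. Tgfa, Il18, Fgf9 and Egf, at no more than 46.9 CPM in any library, were too low to test.

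Among the lower genes, Atp5g3, a subunit of the mitochondrial ATP synthase, was at 872 CPM in young 1 and at 149 ± 45.3 CPM (SD, n = 4) in old libraries (edgeR log2 fold change -2.64 ± 0.54 SE, adjusted p = 0.557). Cdk2, a kinase of the cell cycle, was at 139 CPM (14 counts) against 13.8 ± 6.59 CPM (log2 fold change -3.57 ± 0.59 SE, edgeR adjusted p = 0.390). Klhl9, Dcun1d5, P2ry10b, Entr1 and Ywhah were spread over many cells of young 1, whereas Smpdl3b, Nedd4l and Cpeb3 rested on single cells there. Of 69 Smpdl3b counts 68 came from 1 cell, of 46 Nedd4l counts 42, and of 36 Cpeb3 counts 30.

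The cell-cycle inhibitors used as signs of senescence had lower levels in the old libraries than in young 1, without passing the test. Cdkn1a, which encodes p21, was at 584, 1254, 372, 275, 244 and 110 CPM, so that every old library was below both young libraries (edgeR log2 fold change -1.27 ± 0.69 SE, adjusted p = 0.679). Cdkn2a, which encodes p16, was at 99.1, 0, 44.6, 22.9, 16.6 and 7.58 CPM, with 10 counts in young 1 and none in the 8 cells of young 2 (log2 fold change -2.76 ± 0.91 SE, edgeR adjusted p = 0.627). Of 11 genes of cell-cycle arrest and p53, 3 had a positive and 8 a negative log2 fold change (median -0.61, beside 3535 and 2915 of all genes), and none passed the adjusted threshold. The median was -0.26 without the 28-month, -0.35 without the 27-month and -0.93 without the 24-month library. Immediate early genes, led by Junb, summed to 19010, 16302, 14506, 16105, 13481 and 3827 CPM, lowest at 28 months as Cdkn1a was. Of 18 tested, 7 had a positive and 11 a negative log2 fold change (median -0.69, and -0.70 to -0.25 with a library left out). The part of the immediate early genes in the Cdkn1a levels was not tested. The log2 ratio of Cdkn1a to other MΦs was -0.145 in young 1 and -0.551, -0.273, -0.378 and -0.227 in the old libraries. Its lower levels in the old libraries were thus not particular to perivascular MΦs. In other MΦs the genes of cell-cycle arrest and p53 summed to 2102, 2799, 2308, 1546, 1258 and 798 CPM.

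**Figure D5:**
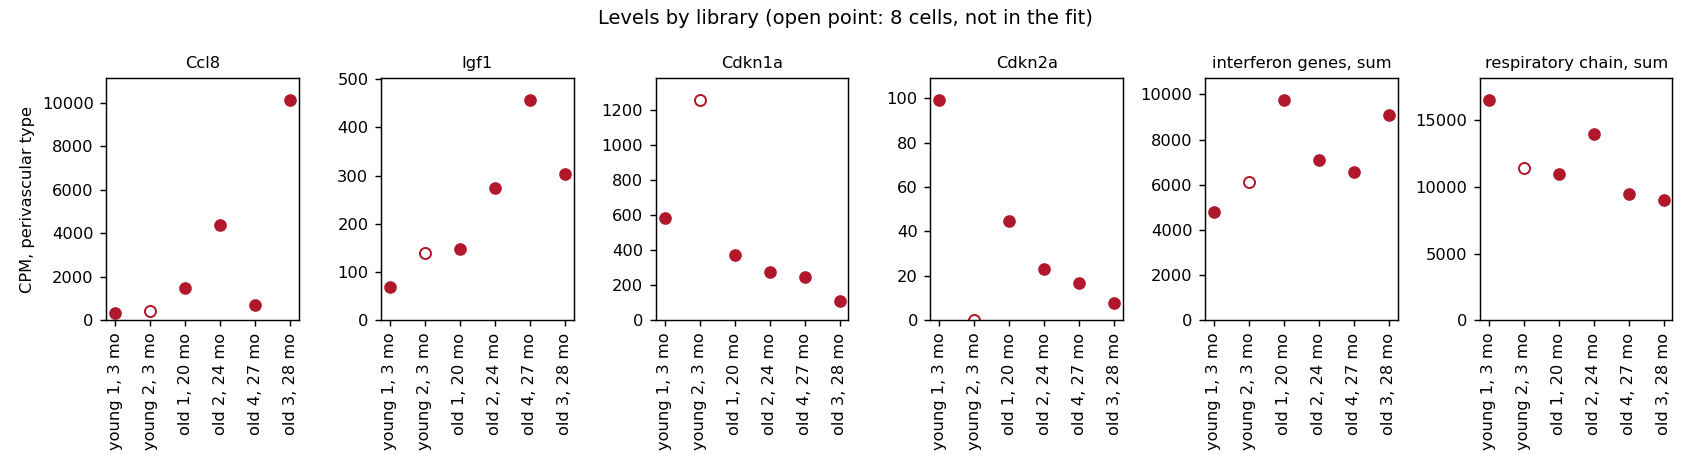
CPM in perivascular MΦs of each library for Ccl8, Igf1, Cdkn1a, Cdkn2a, the summed interferon genes and the summed nuclear respiratory chain genes, with young 2 (8 cells, not in the fit) as an open point. Igf1 is higher and Cdkn1a lower in all 4 old libraries than in young 1, while Ccl8 spreads from 683 to 10103 CPM among the old libraries.

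Interferon response genes summed to 4775, 6131, 9735, 7079, 6552 and 9071 CPM in perivascular MΦs, so each old library was above young 1, which did not hold at 27 months in cells of a marker share of 0.1 to 0.5%. The value of young 2 rests on 8 cells. In other MΦs the sum was 4255, 3806, 7630, 5376, 3897 and 4102 CPM, with old and young overlapping. Of the 44 genes tested, 42 had a positive log2 fold change and 2 a negative one (median 1.39), beside 3535 and 2915 of all 6450 genes. In young 1, 5 of the 44 had no count and 21 had 1 to 3 counts. Thinned to 500 UMIs per cell the median of the list was 0.49, and with a covariate for the 3 libraries that share barcodes it was 0.69.

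The counts by sign in this paragraph stand beside 3535 positive and 2915 negative of all 6450 genes. Nuclear genes of the respiratory chain had a negative log2 fold change in 54 of 71 (median -0.53), at a sum of 16494, 11425, 10947, 13951, 9485 and 8997 CPM. The young 2 sum lay within the old range. All 9 mitochondrially encoded genes tested were positive (median 2.07), but their sum of 2487 CPM in young 1 was far below the 12401 CPM of young 2, while the old libraries had 5849, 13768, 11146 and 25479 CPM, so it was young 1 that stood apart. Free RNA held 28948 and 68644 CPM of these genes in the young and 147847 to 286894 CPM in the old libraries. Ribosomal protein genes were negative in 63 of 78 (median -0.31, and -0.06 without the 28-month, -0.18 without the 27-month and -0.52 without the 24-month library). With the covariate for shared barcodes this median was 0.13, and the sum in young 2, 92796 CPM, lay within the old range of 45273 to 106158 CPM. MHC-II genes were positive in 7 of 7 (median 1.29, and 0.79 without the 20-month library), and Cd74, the invariant chain, was at 2338, 6409, 12403, 4330, 6352 and 6113 CPM, so that young 2 lay within the old range.

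The rule chose the perivascular MΦs by expression in these same cells, and it set them apart less in young 1 than in the old libraries. In young 1, 23 of 97 cells passed on a single marker UMI. The median log2 ratio of the perivascular list was 1.06 in young 1 and 2.24 to 3.27 in the old libraries. The part of this gap in the differences below was not tested. Whether the age difference of perivascular MΦs differed from that of other MΦs was tested with edgeR in a fit with the library as a block, over 9058 genes. The difference was positive for 12 genes (0.132%) and negative for 6 (0.0662%) at an adjusted p under 0.05. For Ccl8 it was 5.23 ± 0.71 SE on the log2 scale (edgeR adjusted p = 2.87e-08), with counts of 31, 200, 190, 989 and 27994 in perivascular MΦs and 18, 0, 7, 0 and 133 in other MΦs, young 2 left out. On the young side the 18 counts came from 4 cells, 10 of them from 1, and with barcodes thinned before the rule the log2 ratio was 1.90 in young 1 against 2.85 to 3.04 at 20, 27 and 28 months and 6.95 at 24 months. Ccl8 was not called at a marker share of 0.2% or with F13a1 left out of the markers, and it was called under each other alternative run. Apoe, the lipid carrier, was at 3378, 14373, 4078, 9714 and 18870 CPM in perivascular MΦs and at 2939, 5599, 536, 1988 and 3075 CPM in other MΦs of the same libraries (difference 2.05 ± 0.51 SE, edgeR adjusted p = 0.0403). Among the libraries of this fit, the 2 kinds of MΦ thus had nearly the same Apoe level in young 1. In every old library the level was higher in perivascular MΦs. In perivascular MΦs of a marker share of 0.1 to 0.5%, Apoe was at 3260 CPM in young 1 and at 15208, 2707, 4939 and 11138 CPM in the old libraries, so that 24 months was below young 1. The 5 such cells of young 2, outside the fit, held 12729 CPM (68 counts), within the old range, so the Apoe difference from the young rests on young 1. The Apoe call was lost at marker shares of 0.05% and 0.2%, without F13a1, with filterByExpr, without TMM, when thinned, and without the 24-, 27- or 28-month library. All 18 tests rest on young 1 alone for the young side, and with each cell thinned to 500 UMIs 4 genes passed, of which Ccl8 was among the 18. Without the 27-month library 8 genes passed.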

How the data were processed

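Single cell RNA sequencing was done on 6 libraries of proximal PAs. Per the labels, reads came from the 10x Genomics 3′ v3.1 kit, and the submitters' processing notes name Cutadapt, STAR, STARsolo and GRCm38.p6. The authors deposited raw UMI counts per gene and barcode, unfiltered and without normalization, for 53647 features per library. Gene symbols are those the files give. The perivascular MΦs and the gene lists were chosen with earlier results of these data known.

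Counts were summed over the cells of a library and kind. Libraries with at least 10 perivascular MΦs entered the fits, which left out young 2. A gene was tested where over 5% of perivascular MΦs had a count of it in at least 3 libraries, with edgeR 4.0.16 in R 4.3.3 (quasi-likelihood F test with robust estimation after TMM, p adjusted by Benjamini-Hochberg over all genes, threshold 0.05). The comparison with other MΦs used genes with at least 50 counts and no test. Shares were compared with two-sided exact permutation tests. Free RNA is the sum over barcodes with at most 100 UMIs. Named genes were drawn from those of the rule, those the study's text names for these cells, the 10 of lowest p in each direction by age with at least 30 counts, the 12 highest and 12 lowest ratios against other MΦs among genes apart the same way in every library with at least 200 counts, the 4 most abundant of each list, and the 3 of lowest p in each direction of the difference of age differences. Adgre1, the sex-linked genes, genes at 0 in a marker list and the other genes called in that last comparison were named outside this rule. The most abundant genes of many lists stand only in their list's counts. 1 gene is not reported here. The fits were tested on simulated data. Doublets were marked with scrublet in scanpy 1.11.5 and Python 3.11.15.

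Alternatives were barcodes of 1000 or more UMIs with 500 genes, a limit of 10% mitochondrial UMIs, marker shares of 0.05% and 0.2%, no F13a1, no doublets, thinning to 500 UMIs, filterByExpr, no gene filter, no minimum of cells, DESeq2 1.42.0, no TMM, a covariate for the 3 libraries that share barcodes, and leaving out each library. Thinning before the rule, and levels at a marker share of 0.1 to 0.5%, were chosen after seeing the data.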

Additional observations from a re-analysis of the deposited data

Results flagged for a closer look

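Within the old libraries, 7 of 63 values tested in perivascular MΦs (11.11%) had 1 library far from the other 3. The values come from the same libraries and are not independent, so this share was not set against chance. The median MHC-II share was 3.18% at 20 months and 0.603 to 0.721% in the others. Gm11290 was at 126 CPM at 20 months and at no more than 2.89 CPM elsewhere. At 24 months Slpi was at 3047 CPM (0 to 44.6 in the others), Alox15 at 229 CPM (0 in the others), Cd9 at 321 CPM (7.43 to 49.1) and C1qc at 1443 CPM, below the 2750 to 2913 CPM of the others. The 133 Slpi counts came from 6 of 37 cells, 66 of them from 1 cell. The 10 Alox15 counts came from 4 cells, 5 of them from 1 cell. C1qc belongs to the gate, so its value is a description. Il4ra was at 323 CPM at 28 months and at 91.6 to 106 CPM in the others.

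For 18 genes edgeR called the age difference of perivascular MΦs different from that of other MΦs. The log2 difference was positive for Ccl8 (5.23), Pla2g2d (7.25), Cd209g (4.97), Gm26542 (4.80), Plekhg5 (4.05), Tom1l2 (4.04), Anks1 (3.84), Cd38 (2.80), Ninj1 (2.71) and Apoe (2.05). It was also positive for Ndufs3 (11.16) and Mtus2 (10.56), which had 0 counts in the perivascular MΦs of young 1, so that these values depend on the prior count. In the 143 other MΦs of young 1, 62 Ndufs3 counts came from 5 cells, 28 Mtus2 counts from 3, 41 Tom1l2 counts from 5 and 47 Gm26542 counts from 10. It was negative for C3 (-2.91), Gngt2 (-3.12), Nedd4l (-4.21), Smpdl3b (-5.70), 1700034P13Rik (-6.85) and Serping1 (-10.38). Serping1 had 0 counts in the other MΦs of young 1, and its 4 counts in perivascular MΦs came from 1 cell. For 1700034P13Rik, 7 cells of young 1 held 128 counts. The rule set the 2 kinds of MΦ apart less in young 1 than in the old libraries, and the part of this in these differences was not tested.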

How the results depend on the processing

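No paired analysis was possible because no source used here pairs young with old libraries, and 1 young library entered the fits. Leaving out young 1 left no young library with 10 perivascular MΦs, so that fit was not run. The age comparison called 0 genes in every fit that left out an old library. It called 1 gene at a marker share of 0.2% and 1 with filterByExpr, 12 with no filter on low counts, 9 with DESeq2 and 19 with no minimum of cells. The difference of age differences called 18 genes, 9 at a marker share of 0.05%, 4 thinned and 6 with filterByExpr, and 8 to 22 with a library left out. More genes were called in that comparison at a limit of 10% mitochondrial UMIs, at 1000 or more UMIs, without F13a1 and without doublets. The genes called were not all the same between settings. Genes at least 2-fold apart numbered 73, of which 37 were among the 113 at a marker share of 0.2%, 39 among the 70 at 0.05%, 47 among the 107 without F13a1, 14 among the 25 thinned, and 6 among the 13 with barcodes thinned before the rule, and 73 to 204 genes were apart with a library left out. The difference in share ranged from 18.0 to 39.6 percentage points of MΦs and from 1.47 to 4.53 of kept barcodes with a library left out.

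With the covariate for the 3 libraries that share barcodes, list medians were -0.14 (perivascular), 0.63 (MHC-II), 0.69 (interferon) and 0.13 (ribosomal), and Gas6 turned from 2.33 to -0.44. Thinning gave 0.49 for interferon, -1.16 for cell-cycle arrest and 0.18 for lysosome genes. With no gene filter interferon was at 1.96, the mitochondrial genome at 2.95 and chemokines at 0.66. With no minimum of cells, respiratory chain genes were at -0.17 and lysosome genes at 0.25, filterByExpr gave -1.09 for cell-cycle arrest, and at least 1000 UMIs gave 3.05 for the mitochondrial genome and turned Smpdl3b to 7.88. Medians ranged from 0.79 to 1.51 for MHC-II and from 1.02 to 1.43 for interferon with a library left out. The cause of these shifts was not tested. The other 163 list values moved by less than the spread with which they were compared. Of the values of named genes by age, 440 kept their direction and stayed above the adjusted threshold, and 16 passed it under an alternative.

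Depth limits what can be read here. Young 1 held 100945 UMIs in perivascular MΦs, so genes under 29.7 CPM, Pdgfc among them, could not be told from 0, and young 2 held 7177, with a floor of 418 CPM.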

Other observations

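The other MΦs were not alike between libraries. In young 1, young 2 and the 24-month library, the 3 that share barcodes, Slpi was at 1083, 8555 and 9185 CPM in other MΦs, against 101, 0 and 45.6 CPM at 20, 27 and 28 months. Alox15 was at 195, 1856 and 1317 CPM against 0, 0 and 1.14 CPM, with a UMI in 9.79%, 61.3% and 47.1% of the cells of the former 3. Pf4 was at 1038, 5378 and 3404 CPM against 739, 264 and 159 CPM, and Timd4 at 195, 723 and 229 CPM against 0, 3.99 and 7.98 CPM. The comparison group of the perivascular MΦs therefore differed between libraries, and the low ratios of Timd4 and Fcna in young 1 and at 24 months went with these levels. Whether the shared barcodes and these genes are linked was not tested.

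Cxcl2, a chemokine for neutrophils that rises during tissue handling, was at 7460, 7942, 5187, 10034, 1518 and 109 CPM in perivascular MΦs and at 8861, 11165, 10819, 8962, 2244 and 100.4 CPM in other MΦs. It was low in the 27- and 28-month libraries in both kinds of MΦ, and its part in the age comparison was not tested.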
